A study of Homo sapiens with 6 samples.

Results

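The comparison described here set TC32 cells that received an siRNA against EWSR1 (siEWSR1) beside TC32 cells that received a control siRNA (siNeg), gene by gene. TC32 is an established Ewing sarcoma cell line, a childhood tumour of bone and soft tissue, and it was grown in RPMI-1640 medium with fetal bovine serum. RNA was collected 48 h after transfection, and each group had 2 libraries. Every gene with at least 1 FPKM (an RNA level corrected for the length of the transcript and the depth of the library) in at least 2 of the 4 libraries was taken, which gave 12797 genes of 26931 symbols in the files. A gene under 1 FPKM in both libraries of a group passed only through the other group, so the filter fixed its direction. Such genes are among those named below and add to the counts of genes called, also in the gene lists. Another siRNA, against FLI1 (siFLI1, also 2 libraries), entered the model only as a source of information on spread.

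In Ewing sarcoma a translocation joins EWSR1 to an ETS family gene, most often FLI1, and the fusion protein EWS-FLI1 both activates and represses transcription. It activates many genes by binding repeats of the letters GGAA, and its loss in cell lines is known to release mesenchymal genes. An siRNA against EWSR1 can act on the fusion transcript, on normal EWSR1 transcripts, or on both, depending on where it binds. The sources used here do not give the region that this siRNA binds.

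The deposited intervals imply 15284159 to 16298374 fragments per library in the 4 libraries compared. These totals are rough, since the fragment counts of genes were not recovered from the intervals. In these libraries 12079 to 12669 genes reached 1 FPKM. Across the tested genes, log2 levels correlated at 0.979 within siNeg and 0.976 within siEWSR1, against 0.895 to 0.914 between the groups. EWSR1, on chromosome 22, fell from 46.5 and 47.2 FPKM in the siNeg libraries to 34.6 and 32.3 with siEWSR1 (log2 change -0.48 ± 0.06, standard error), a sum over normal and fusion transcripts. FLI1, from which the other part of the fusion derives, was at 10.9 and 10.9 against 10.4 and 10.6 FPKM (-0.04 ± 0.06, adjusted p = 0.542). The labels do not state that the libraries came from separate cultures, so the p-values measure the spread between these libraries, which may be technical.

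The difference between the groups was broad. With siEWSR1, 4211 genes (32.9% of those tested) were higher and 4058 (31.7%) were lower at an adjusted p under 0.05 in limma, and 4528 (35.4%) were not called. The higher and lower calls were balanced in number but not in size. A rise of at least 2-fold was called in 972 genes (7.6%) and a fall of that size in 599 (4.68%), and at least 4-fold in 260 (2.03%) and 41 (0.32%). From the 25th to the 75th percentile of all genes, log2 changes ran from -0.33 to 0.36, and from the 1st to the 99th from -1.62 to 2.63. Of the 2-fold calls, 61.9% were rises, which became 50.4% when the libraries were quantile normalized (737 rises and 725 falls) and 46.2% among genes with a mean of at least 5 FPKM.

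Direction was linked to level. Among 4165 genes with a mean under 5 FPKM, 42.9% were called higher and 21% lower, and 14.1% rose at least 2-fold. Among 484 genes at 100 FPKM or more the order was the reverse, with 15.1% called higher and 49.2% lower, and 2.89% rose at least 2-fold. The median log2 change went from 0.18 in the lowest of 4 level classes to -0.18 in the highest. Genes that passed the filter only through 1 group, which fixed their direction, add to these counts. Of such genes, 288 were under 0.5 FPKM in both siNeg libraries and at 1 or more in both siEWSR1 libraries, and 36 showed the reverse. The part of the filter in the link was not tested. Every FPKM is a share of its own library, so these changes are relative to the other RNAs in it. Loci under 300 bases, whose FPKM is inflated by their length, held 40.8% and 48.6% of the summed FPKM in the siNeg libraries and 49.96% and 43.5% with siEWSR1, and their part in the link was not tested.

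**Figure D1:**
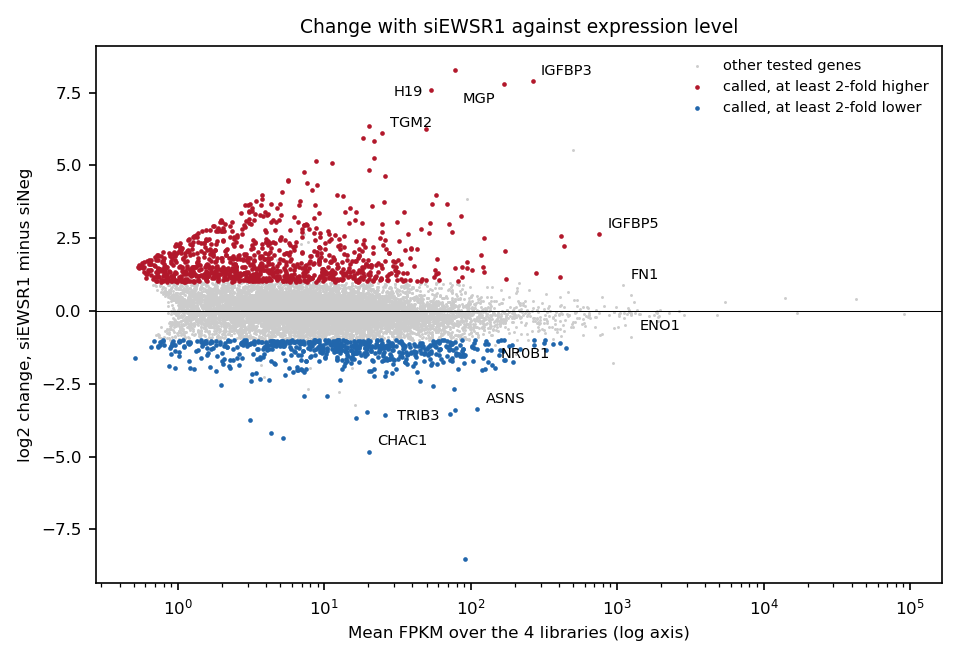
Each point is 1 of 12797 genes, with the mean FPKM over the 4 libraries on a log axis and the log2 change, siEWSR1 minus siNeg, on the vertical axis. Colour marks genes called at least 2-fold higher (972, red) or lower (599, blue). The rises reach further than the falls, and the falls are more frequent to the right. The points near 8.28 and -8.52 are MIR630 and MIR3663, loci under 300 bases whose FPKM rests on few fragments.

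Genes that hardly registered in control cells made up the top of the list. IGFBP3, which binds insulin-like growth factors outside the cell (hg19, chromosome 7, 45951844 to 45960871), was at 1.74 and 1.69 FPKM in the 2 control libraries and at 494 and 560 with siEWSR1, a log2 change of 7.89 ± 0.07 (adjusted p = 3.78e-08). MGP, a secreted inhibitor of mineralization (chromosome 12, 15034115 to 15038853), was at 0.90 and 1.10 against 303 and 370 FPKM (7.81 ± 0.11). H19, an imprinted long non-coding RNA (chromosome 11, 2016406 to 2022696), was at 0.04 and 0.07 against 103 and 112 FPKM (7.60 ± 0.09). In all 3, replicates of a group differed little beside the gap between groups. Next in order were SULF2, which trims sulfate from heparan sulfate (0.70 and 0.87 against 87.6 and 109 FPKM), and TGM2, a cross-linking transglutaminase (0.25 and 0.19 against 47.1 and 50.8). ART5, an ADP-ribosyltransferase, TIMP3, a metalloprotease inhibitor, and MIR503HG, the host RNA of 2 microRNAs, reached 34.4 and 38.7, 40.1 and 47.2, and 40.4 and 45.9 FPKM from under 1. The last of the 10 highest were KRT15, a keratin, at 19.96 and 24.9 FPKM with siEWSR1, and DKK1, a secreted WNT antagonist, at 36.5 and 42.6. The log2 changes of these 10 genes ran from 4.85 to 7.89. They were taken from genes whose groups do not overlap, which holds for 83.5% of all tested genes, so their separation follows from the choice. All of them but IGFBP3 and MGP were under 1 FPKM in both siNeg libraries, so the filter fixed their direction.

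The 10 lowest changes were dominated by enzymes and regulators of amino acid stress. CHAC1, which breaks down glutathione (chromosome 15, 41245636 to 41248717), was at 36.0 and 42.4 FPKM in the 2 control libraries and at 1.01 and 0.78 with siEWSR1, a log2 change of -4.83 ± 0.12 (adjusted p = 1.5e-06). CTH, which makes cysteine from cystathionine, stood at 51.3 and 44.6 against 3.60 and 3.53 FPKM (-3.57). TRIB3, a pseudokinase induced by stress, stood at 151 and 117 against 12.6 and 9.46 FPKM (-3.55). In each of them the siEWSR1 libraries lay together. Their place below both controls follows from the choice among genes whose groups do not overlap (83.5% of all tested genes). ASNS, which makes asparagine, went from 223 and 180 to 20.5 and 17.8 FPKM, and PCK2, the mitochondrial phosphoenolpyruvate carboxykinase, from 38.9 and 33.1 to 2.90 and 2.72. PSAT1, a transaminase of serine synthesis, SLC6A9, a glycine transporter, and ALDH1L2, a mitochondrial folate enzyme, had log2 changes of -2.67, -2.90 and -2.91. The other two were the uncharacterised transcript FLJ46906 (33.5 and 28.6 against 2.25 and 1.73 FPKM) and MYEOV (136 and 151 against 17.6 and 9.75), whose siEWSR1 libraries differed most from each other.

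**Figure D2:**
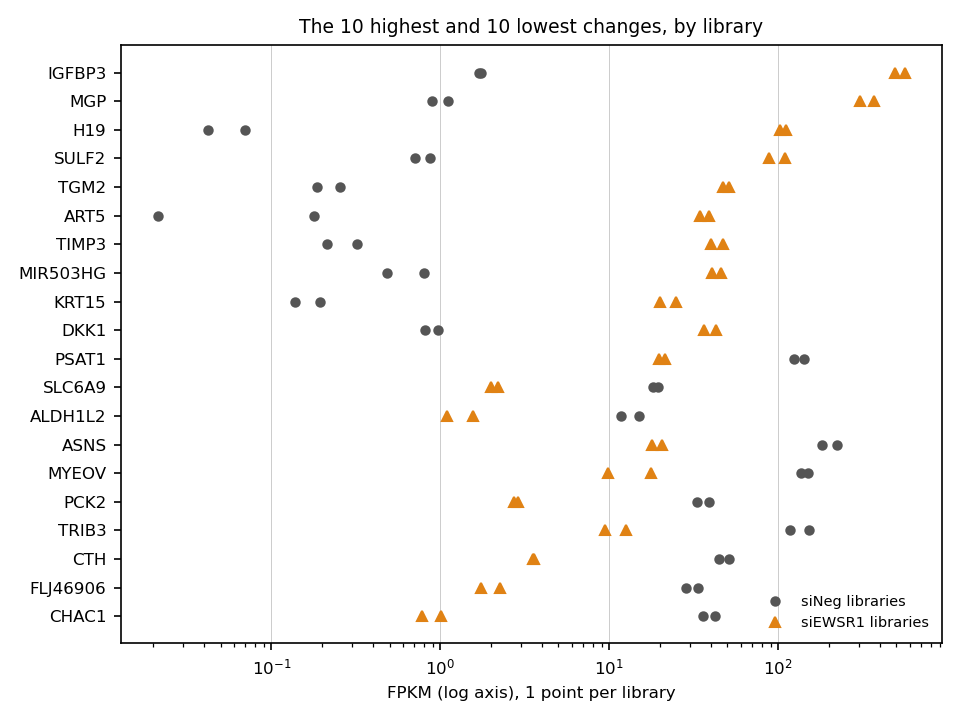
FPKM in each library (log axis) for the genes with the 10 highest and 10 lowest log2 changes, with grey circles for the 2 siNeg and orange triangles for the 2 siEWSR1 libraries. The 20 genes were chosen among those whose groups do not overlap. IGFBP3 moves from 1.69 and 1.74 FPKM to 494 and 560, and CHAC1 from 36.0 and 42.4 to 0.78 and 1.01.

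Counted in FPKM rather than as a ratio, the largest gains were in secreted proteins. IGFBP5, another IGF-binding protein, went from 200.5 and 216 to 1207 and 1390 FPKM, the largest gain. FN1, the matrix protein fibronectin, went from 776 and 760 to 1394 and 1438 although its log2 change was only 0.88. TGFBI, a collagen-binding matrix protein, went from 117 and 119 to 678 and 748, and COL3A1, a chain of fibrillar collagen, from 154 and 150 to 676 and 749. These gains were alike in both siEWSR1 libraries. The largest falls in FPKM were in the glycolytic enzymes ENO1 (1583 and 1644 to 1043 and 739) and GAPDH (2101 and 2115 to 1750 and 1591), the actin-binding TMSB10, and the tubulins TUBA1C and TUBA1B. ENO1 differed more between its siEWSR1 libraries than the others did. TUBA1B and TUBA1C are near-identical in sequence and could share reads, and GAPDH was not called after quantile normalization (adjusted p = 0.11).

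Genes of the ATF4 response had the lowest median of the 40 gene lists examined, which were chosen with earlier results of these data known. ATF4 is a transcription factor whose translation rises when amino acids run short or proteins misfold, and it switches on amino acid transporters, tRNA synthetases and the serine pathway. Of 43 measured members, 40 were called lower (93.0% against 31.7% of all genes), 33 of them at least 2-fold. The median log2 change was -1.67 against 0.00 for all genes. Not called were ALDH18A1 (-0.09), VEGFA (0.15) and NUPR1 (0.32), named after their values were seen. ATF4 itself, named likewise, stood at 288 and 262 against 144 and 133 FPKM (-0.99 ± 0.07). The related stress factors DDIT3 (-1.77), ATF5 (-2.57), CEBPG (-1.70) and ATF3 (-1.50) were lower as well. With quantile normalization 2 members of the list were called higher.

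Promoters of 2 of these genes are shown because they hold the composite element to which ATF4 binds with a C/EBP partner, TGATGNAA on either strand. The windows are the 250 bases before the transcript start in RefSeq (GRCh38.p14), written in the gene's direction with the match in capitals. They are chr15:40953221-40953470, plus strand, for CHAC1 and chr7:97872409-97872658, minus strand, for ASNS.
CHAC1: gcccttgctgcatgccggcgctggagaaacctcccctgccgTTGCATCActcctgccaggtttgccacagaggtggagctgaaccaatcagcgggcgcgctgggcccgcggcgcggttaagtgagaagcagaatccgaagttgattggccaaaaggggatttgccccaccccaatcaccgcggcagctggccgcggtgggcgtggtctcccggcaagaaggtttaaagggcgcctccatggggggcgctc
ASNS: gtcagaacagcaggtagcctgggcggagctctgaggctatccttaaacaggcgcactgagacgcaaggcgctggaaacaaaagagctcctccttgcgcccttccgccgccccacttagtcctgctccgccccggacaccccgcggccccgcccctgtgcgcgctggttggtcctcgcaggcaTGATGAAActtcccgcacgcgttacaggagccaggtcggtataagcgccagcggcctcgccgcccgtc
In CHAC1 the match begins 209 bases before the start and lies on the opposite strand, and in ASNS it begins 68 bases before the start of 1 of 2 annotated windows. The element occurs in 3.14% of the 35116 windows searched. Too few members of the list had a window (32 of 43) for a share among them, and a match to these letters is not evidence of binding.

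Separate sets of enzymes charge tRNAs in the cytosol and in mitochondria. Of 20 cytosolic aminoacyl-tRNA synthetases, 16 were lower (80.0% against 31.7% of all genes) and 10 at least 2-fold, with a median of -0.96. GARS, for glycine, stood at 214 and 185 FPKM in control cells against 50.3 and 47.9 with siEWSR1 (-2.01), and CARS, for cysteine, at 68.2 and 60.5 against 17.3 and 16.5 (-1.90). In each the 2 siEWSR1 libraries were alike, and both genes were chosen among those whose groups do not overlap. The 1 member called higher was RARS, for arginine, at 39.4 and 37.7 against 42.8 and 42.7 (adjusted p = 0.0453), a call lost in most of the alternative settings. Of 17 mitochondrial synthetases, 5 were lower (29.4%, near the 31.7% of all genes) and 2 higher (11.8%), with a median of -0.14. The other 10 were not called. CARS2, for cysteine, was the highest of them (13.6 and 15.1 against 19.3 and 18.7 FPKM). The difference between the 2 sets was not tested.

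Of 28 measured amino acid transporters, 14 were lower (50% against 31.7% of all genes) and 9 higher (32.1%, near the 32.9% of all genes). SLC7A5, the light chain of the large neutral amino acid exchanger, stood at 65.3 and 65.1 against 19.2 and 17.8 FPKM (-1.79). The members called higher included SLC6A6, a taurine transporter (3.003 and 3.17 against 10.8 and 10.7 FPKM), and SLC38A7, a lysosomal glutamine exporter (2.03 and 2.29 against 6.79 and 7.81). Of 45 glutathione and antioxidant genes, 12 were higher (26.7%) and 15 lower (33.3%), near the shares of all genes. GPX3, a secreted glutathione peroxidase, stood at 0.33 and 0.28 against 8.77 and 10.7 FPKM, and HMOX1, which degrades haem, at 2.41 and 2.45 against 8.85 and 9.45. GSTM5, a glutathione transferase with close paralogs, was lower (7.81 and 7.44 against 3.81 and 3.23).

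Genes of mitosis, a list also chosen with earlier results known, fell almost without exception. Of 69 kinetochore and spindle genes, 65 were lower (94.2% against 31.7% of all genes), 49 at least 2-fold, with a median of -1.20. KIF2C, a microtubule-depolymerizing kinesin of the kinetochore, stood at 131 and 130 against 35.8 and 28.7 FPKM (-2.01 ± 0.11), and NUF2, a subunit of the outer kinetochore, at 89.5 and 78.3 against 25.2 and 20.7 (-1.85 ± 0.14). The 4 not called, named after their values were seen, were MIS12 (-0.01), CENPT (-0.07), MAD1L1 (-0.08) and NSL1 (-0.20). Since these are bulk samples, fewer cells in mitosis and less of these RNAs per cell cannot be told apart.

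Among cyclins, their kinases and inhibitors, 34 of 50 were lower (68.0% against 31.7% of all genes) and 8 higher (16.0% against 32.9%). CDC25C, the phosphatase that activates the mitotic kinase CDK1, stood at 23.4 and 23.2 against 8.01 and 6.53 FPKM (-1.62), and CCNA1, an A-type cyclin, at 4.38 and 4.33 against 1.30 and 0.91. The highest 2 were inhibitors. CDKN1A (p21) stood at 5.02 and 5.24 against 43.3 and 44.9 FPKM (2.99 ± 0.07), and CDKN1C (p57) at 1.61 and 2.24 against 16.3 and 13.7 (2.68 ± 0.14). Both lay far above the list's median of -0.56, while the inhibitors CDKN1B (-0.28) and CDKN2D (-1.04), named after their values were seen, were lower.

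The CDC25C promoter is shown because cell cycle genes that peak in mitosis often carry a CCAAT box, bound by NF-Y, upstream of a cell cycle homology region, TTTGAA, bound by the DREAM complex. The window is chr5:138331805-138332054, minus strand (RefSeq, GRCh38.p14), with both motifs in capitals.
CDC25C: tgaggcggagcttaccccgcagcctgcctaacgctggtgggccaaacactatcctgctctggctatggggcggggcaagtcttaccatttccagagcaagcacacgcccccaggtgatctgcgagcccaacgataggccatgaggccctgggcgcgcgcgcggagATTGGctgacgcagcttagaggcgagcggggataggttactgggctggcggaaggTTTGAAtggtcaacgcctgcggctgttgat
The CCAAT box, read on the other strand, begins 85 bases before the start and TTTGAA 30 bases before it. This holds for 1 of the 4 windows annotated for the gene. Among 69 windows found for 59 of the 69 kinetochore and spindle genes, 66.7% held CCAAT and 33.3% TTTGAA on either strand, against 32.0% and 13.3% of all 35116 windows searched. The GGAA repeat GGAAGGAA was in 1.45% against 3.06%. These shares describe letters in a window, no test was made of them, and KIF2C and NUF2 held neither motif.

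Genes of DNA repair and nucleotide supply were mostly lower as well. Of 52 genes of homologous recombination, Fanconi anaemia and mismatch repair, 42 were lower (80.8% against 31.7% of all genes) and 1 higher. EME1, a subunit of a nuclease that cuts branched DNA, stood at 15.5 and 15.2 against 6.25 and 4.93 FPKM, and UBE2T, the ubiquitin-conjugating enzyme of the Fanconi pathway, at 132 and 117 against 52.1 and 44.1. TOP3A, a topoisomerase, was the 1 called higher (6.20 and 5.91 against 7.34 and 7.23), and it was not called without siNeg replicate 2 (adjusted p = 0.0787). Of 39 genes for nucleotide synthesis, 33 were lower (84.6% against 31.7% of all genes) and 1 higher, with a median of -0.54. MTHFD2, a mitochondrial folate enzyme also on the ATF4 list, stood at 207 and 178 against 45.3 and 47.4 FPKM, and DCK, which salvages deoxycytidine, at 11.2 and 11.6 against 5.57 and 4.93. SAMHD1, which degrades deoxynucleotides, was the exception (4.74 and 4.66 against 6.07 and 5.90).

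Lists named for the fusion changed mostly in the directions of their names. They were drawn from what is known of fusion loss in cell lines and are not independent evidence of direction. Levels of the fusion transcript itself were not measured apart from normal EWSR1. Of 46 measured EWS-FLI1-activated targets, 42 were lower (91.3% against 31.7% of all genes) and 4 higher, with a median of -0.88. NR0B1, an orphan nuclear receptor, stood at 204 and 234 against 78.0 and 47.0 FPKM (-1.84 ± 0.23), with the siEWSR1 libraries well apart from each other. CCK, a neuropeptide, stood at 60.6 and 53.5 against 18.0 and 13.8 (-1.82). ADRB3, a beta-adrenergic receptor, and E2F3, a cell cycle transcription factor, were higher, with log2 changes of 1.25 and 0.44. Of 35 repressed targets, 25 were higher (71.4% against 32.9% of all genes) and 6 lower (17.1%), with a median of 0.88. Besides IGFBP3 and TIMP3 at the top, MMP1, a collagenase (2.44 and 1.14 against 0.24 and 0.28 FPKM), and CAV2, a caveolar protein (99.7 and 90.4 against 41.4 and 40.7), were at the bottom.

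Matrix and adhesion genes were mostly raised. Of 24 measured basement membrane and integrin genes, 16 were higher (66.7% against 32.9% of all genes), 12 at least 2-fold. Lower were 5 (20.8% against 31.7%), and the median was 1.02. LAMA4, a laminin chain, stood at 2.79 and 3.38 against 46.1 and 49.5 FPKM (3.76 ± 0.09), and ITGA3, a laminin receptor subunit, at 1.70 and 1.67 against 9.69 and 10.4. All 5 lowered members coded for integrin or laminin chains, and ITGB2 (171 and 179 against 111 and 86.7) and ITGB5 (36.7 and 37.8 against 22.8 and 19.2) led them. The other three, named after their values were seen, were LAMA3 (-0.70), ITGA6 (-0.52) and ITGA5 (-0.34). The type IV collagen chains COL4A1 (1.43), COL4A2 (1.16) and COL4A5 (1.98), named likewise, were higher.

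Of 39 measured matrix proteases and inhibitors, 24 were higher (61.5% against 32.9% of all genes) and 7 lower (17.9%), with a median of 0.50. A2M, a broad protease trap, stood at 0.32 and 0.20 against 6.42 and 7.68 FPKM. Among metalloproteases named after their values were seen, MMP11 (3.01), MMP14 (1.80) and MMP2 (1.49) were higher and MMP9 (-0.70) lower. MMP10, a stromelysin, was lower too (2.51 and 1.95 against 0.82 and 0.56). Proteoglycan and hyaluronan genes had 19 of 28 members higher (67.9%) and 5 lower (17.9%), with a median of 0.67. BGN, the small proteoglycan biglycan, stood at 19.2 and 19.4 against 124 and 133 FPKM. The glypicans GPC4 (42.7 and 35.4 against 15.9 and 15.3) and GPC2 (4.35 and 4.31 against 2.40 and 2.31) were lower, as was the syndecan SDC4 (-0.33). The syndecans SDC1 (1.93), SDC2 (1.06) and SDC3 (1.77), named like SDC4 after their values were seen, were higher.

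**Figure D3:**
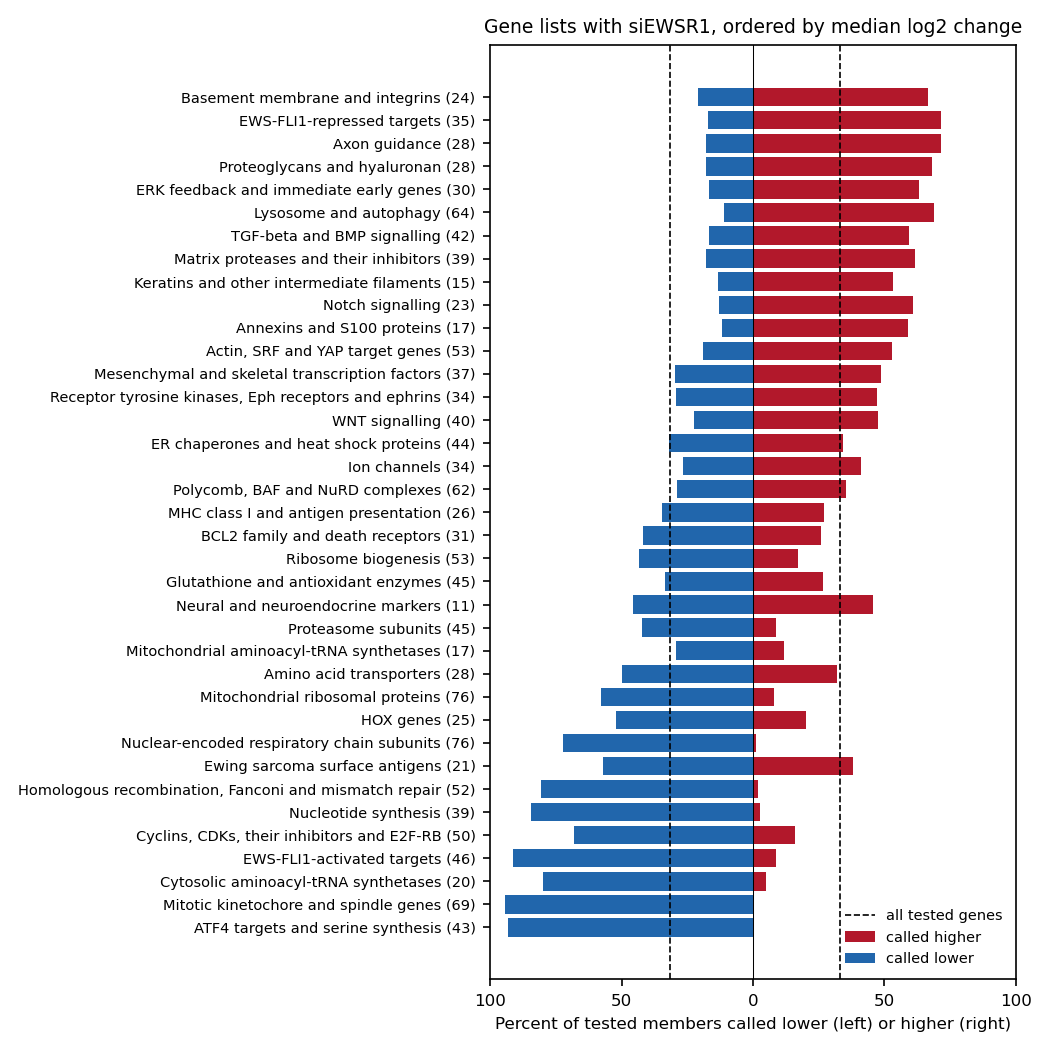
Percent of the tested members of 37 gene lists called higher (red, right) or lower (blue, left) with siEWSR1, ordered by median log2 change, with the number tested in brackets. Dashed lines mark all tested genes (32.9% higher, 31.7% lower). The kinetochore and spindle list (94.2%) and the ATF4 list (93.0%) reach furthest to the left, and the fusion-repressed list and the axon guidance list (71.4% each) furthest to the right.

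TGF-beta and BMP genes, whose products signal through receptor kinases to SMAD factors, were more often raised than lowered. Of 42 measured, 25 were higher (59.5% against 32.9% of all genes) and 7 lower (16.7% against 31.7%), with a median of 0.51. The ligand TGFB2 stood at 0.53 and 0.61 against 11.1 and 14.8 FPKM (3.64 ± 0.14), and LTBP1, which anchors latent ligand in the matrix, at 0.50 and 0.71 against 8.23 and 9.21. The receptors TGFBR1 (0.71), TGFBR2 (1.78) and TGFBR3 (1.89) and the inhibitory mediators SMAD6 (1.07) and SMAD7 (0.65), named after their values were seen, were higher. ID2, a dominant-negative helix-loop-helix protein, was the lowest (271 and 254 against 135 and 102), whereas its paralogs ID1 (0.89) and ID3 (2.52) were higher. BMP2, a ligand, was also lower (1.02 and 1.07 against 0.41 and 0.36).

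WNT genes had their 2 largest rises in secreted inhibitors. Of 40 measured, 19 were higher (47.5% against 32.9% of all genes) and 9 lower (22.5% against 31.7%). Besides DKK1, SFRP1, a WNT-binding protein, stood at 0.09 and 0.12 against 5.13 and 6.82 FPKM. DKK2, another WNT antagonist, was lower (6.96 and 7.33 against 3.54 and 3.03), as was LGR5, an R-spondin receptor (19.3 and 18.8 against 10.5 and 7.67). Notch genes were higher in 14 of 23 (60.9% against 32.9% of all genes) and lower in 3 (13% against 31.7%). The number lowered was larger without siEWSR1 replicate 1. LFNG, a glycosyltransferase that modifies Notch, stood at 0.21 and 0.27 against 4.50 and 4.46, and HEY1, a Notch target, at 5.02 and 5.94 against 30.1 and 33.9. The neural repressor HES6 was lower (14.3 and 16.7 against 10.8 and 7.45), and so was RBPJ, the DNA-binding partner of Notch (14.1 and 14.3 against 10.4 and 11.3).

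Receptor tyrosine kinases were called higher more often than lower. Of 34 measured with their ephrins, 16 were higher (47.1% against 32.9% of all genes) and 10 lower (29.4%, near the 31.7% of all genes). PDGFRA, a platelet-derived growth factor receptor, stood at 0.33 and 0.32 against 8.11 and 10.2 FPKM (3.55 ± 0.14), and EPHB3, an ephrin receptor, at 1.59 and 1.85 against 12.1 and 12.8. NTRK2, the receptor of brain-derived neurotrophic factor, stood at 15.9 and 14.3 against 6.20 and 5.55, and DDR2, a collagen receptor, at 78.1 and 68.1 against 32.5 and 30.9. Downstream of such receptors, the list of ERK feedback and immediate early genes had 19 of 30 members higher (63.3%) and 5 lower (16.7%). SPRY1, an inhibitor of the pathway, stood at 0.23 and 0.29 against 5.03 and 5.74 FPKM, and the AP-1 subunit JUNB at 4.59 and 3.54 against 24.7 and 18.5. FOS, another AP-1 subunit, was lower (51.5 and 48.6 against 32.0 and 27.5), and so was ATF3 (9.49 and 8.55 against 2.89 and 2.85).

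Axon guidance genes also steer non-neural cells. Of 28 measured, 20 were higher (71.4% against 32.9% of all genes) and 5 lower (17.9% against 31.7%), with a median of 0.81. SEMA5B, a membrane semaphorin, stood at 0.07 and 0.08 against 6.20 and 6.37 FPKM, and NRP1, a semaphorin and VEGF co-receptor, at 1.17 and 1.39 against 12.2 and 14.3. All 8 plexins measured, the semaphorin receptors, were called higher, from 0.34 for PLXNA1 to 2.01 for PLXNA2, a group picked out after its values were seen. DCC, a netrin receptor (8.36 and 7.63 against 3.87 and 3.15), and RGMB, a repulsive guidance molecule (5.43 and 4.95 against 2.17 and 2.64), were the lowest.

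Of 37 mesenchymal and skeletal transcription factors, 18 were higher (48.6% against 32.9% of all genes). Lower were 11 (29.7%, near the 31.7% of all genes). PRRX1, a mesenchymal homeobox factor, stood at 0.46 and 0.54 against 11.9 and 14.3 FPKM (3.76 ± 0.12), and SNAI2, a repressor of epithelial genes, at 0.67 and 0.53 against 8.13 and 10.1. DLX5, an osteoblast factor, was lower (54.6 and 57.8 against 29.7 and 22.03), and so was CEBPB (34.004 and 35.7 against 14.4 and 8.98). The list's median was 0.23, and -0.13 among members with a mean of at least 5 FPKM.

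HOX genes encode homeobox factors of body position. Of 25 measured, 13 were lower (52% against 31.7% of all genes) and 5 higher (20% against 32.9%), with a median of -0.29. HOXD4 stood at 36.9 and 42.0 against 13.6 and 10.4 FPKM (-1.68 ± 0.16), and HOXD8 at 24.6 and 21.7 against 7.82 and 7.18 (-1.56 ± 0.08). The other measured HOXD genes, named after their values were seen, were HOXD13 (-1.40), HOXD10 (-1.12), HOXD11 (-0.89) and HOXD3 (-0.73), all called lower, and HOXD9 (-0.02), which was not called. HOXC4 (1.24 and 1.09 against 3.73 and 3.75) and HOXC6 (6.59 and 7.45 against 10.5 and 11.4) were the highest, but they overlap each other and could share reads.

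Polycomb, BAF and NuRD complexes modify or move nucleosomes. Of 62 measured subunits, 22 were higher and 18 lower, near the shares of all genes, and the 22 became 9 without siNeg replicate 1. PHF19, a Polycomb-like protein that recruits PRC2, stood at 51.8 and 54.2 against 119 and 123 FPKM, and was the only member past 2-fold. EZH2, the methyltransferase of PRC2, stood at 43.4 and 43.2 against 24.5 and 21.8, and SMARCD3, a BAF subunit, at 13.1 and 12.7 against 20.9 and 20.9.

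Cytoskeletal genes were raised more often than lowered. Of 53 actin, SRF and YAP targets, 28 were higher (52.8% against 32.9% of all genes) and 10 lower (18.9% against 31.7%). MYLK, the myosin light chain kinase, stood at 1.32 and 1.36 against 11.96 and 15.9 FPKM, and LMOD1, a smooth muscle actin nucleator, at 0.78 and 0.92 against 6.39 and 7.84. DIAPH3, a formin, was the lowest (18.98 and 18.2 against 6.39 and 5.34). Intermediate filament genes had 8 of 15 higher (53.3%) and 2 lower (13.3%). DES, the muscle filament desmin, stood at 0.53 and 0.52 against 8.27 and 7.87 FPKM, and LMNB1, a nuclear lamin, at 112 and 109 against 67.3 and 60.0. Annexins and S100 proteins had 10 of 17 higher (58.8%) and 2 lower (11.8%). S100A2 (1.64 and 1.37 against 4.97 and 6.85) was at the top and ANXA3 (2.61 and 1.69 against 0.79 and 0.69) at the bottom.

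Markers of other cell types were mostly under 1 FPKM, and their part in the results was not tested. Of 15 epithelial markers, 11 were under 1 FPKM in all 4 libraries, and their summed level was 24.98 and 23.8 FPKM in the siNeg libraries against 29.0 and 27.3 with siEWSR1, most of it KRT18 (20.7 and 20.6 against 25.6 and 23.7). The 2 other epithelial markers tested went in opposite directions, CLDN4, a claudin, from 0.22 and 0.25 to 1.39 and 1.40 FPKM and ESRP1, an epithelial splicing factor, from 2.41 and 1.24 to 0.07 and 0.07. Of 17 blood markers, 16 were under 1 FPKM throughout, 6 were at 0, among them PTPRC, and the sum was 1.16 and 1.24 against 2.82 and 3.35. CD34, a progenitor and vessel antigen, was the 1 tested, at 0.03 and 0.06 against 1.44 and 1.93. Of 11 endothelial markers, 10 were under 1 FPKM and VWF was at 0, and the sum was 25.3 and 27.2 against 24.6 and 18.4, most of it EGFL7, the 1 tested (24.7 and 26.6 against 22.6 and 16.5, adjusted p = 0.0393), whose call was lost in several alternative settings. The Ewing sarcoma antigen CD99 was abundant in every library (303 and 308 against 277 and 246 FPKM).

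Other surface antigens of this tumour were altered. Of 21 measured, 12 were lower (57.1% against 31.7% of all genes) and 8 higher (38.1% against 32.9%). ADGRG2, an adhesion receptor, stood at 56.0 and 52.7 against 21.1 and 16.4 FPKM. ULBP1, a ligand of the natural killer receptor NKG2D, stood at 6.02 and 5.27 against 0.71 and 0.60 (-2.41 ± 0.11). MICB, another such ligand, taken from the antigen presentation list, stood at 26.5 and 27.4 against 11.6 and 10.3. CDH11, a mesenchymal cadherin, was the highest of the antigens (13.7 and 14.3 against 58.6 and 69.6). In the antigen presentation list 7 of 26 were higher (26.9%) and 9 lower (34.6%), near the shares of all genes, and CD74, the class II invariant chain, appeared at 2.39 and 2.71 FPKM from 0 and 0.05. Of 11 neural and neuroendocrine markers, 5 were higher (45.5%) and 5 lower (45.5%). ENO2, the neuronal enolase, stood at 124 and 127 against 60.0 and 43.3. L1CAM, an adhesion molecule, stood at 0.37 and 0.34 against 4.61 and 4.34.

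Lysosomal and autophagy genes, which serve the breakdown of proteins, lipids and organelles, were more often higher than lower. Of 64 measured, 44 were higher (68.8% against 32.9% of all genes), 12 at least 2-fold, and 7 lower, with a median of 0.55. OPTN, an autophagy receptor, stood at 6.31 and 5.89 against 27.3 and 29.0 FPKM (2.12 ± 0.07), and CTSD, a lysosomal aspartic protease, at 42.1 and 47.6 against 130 and 129 (1.52 ± 0.08). In each the 2 siEWSR1 libraries lay close together, and both genes were chosen among those whose groups do not overlap. PSAP (1.31), GRN (1.32) and SGSH (1.30), named after their values were seen, followed, as did TFEB (1.13), a transcription factor of lysosomal genes. SMPD1, acid sphingomyelinase, was the lowest (61.5 and 54.1 against 27.1 and 23.0), then GLA, alpha-galactosidase A (53.4 and 53.7 against 31.0 and 29.9).

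Mitochondrial genes shifted down by small amounts. Of 76 nuclear-encoded respiratory chain subunits, 55 were lower (72.4% against 31.7% of all genes) and 1 higher. None passed 2-fold and the median was -0.29. SDHB, the iron-sulfur subunit of complex II, was the lowest (128 and 126 against 76.9 and 72.3 FPKM), and NDUFB2, of complex I, was the 1 called higher (88.5 and 81.8 against 111 and 108). Of 76 mitochondrial ribosomal proteins, 44 were lower (57.9%) and 6 higher (7.89% against 32.9% of all genes), with a median of -0.23. MRPL17 was the lowest (36.8 and 34.1 against 16.4 and 14.2) and MRPS6 the highest (41.3 and 46.5 against 85.3 and 84.2). With quantile normalization the lowered members of both lists became 29, and without siNeg replicate 1 those of the ribosomal list became 29 too.

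**Figure D4:**
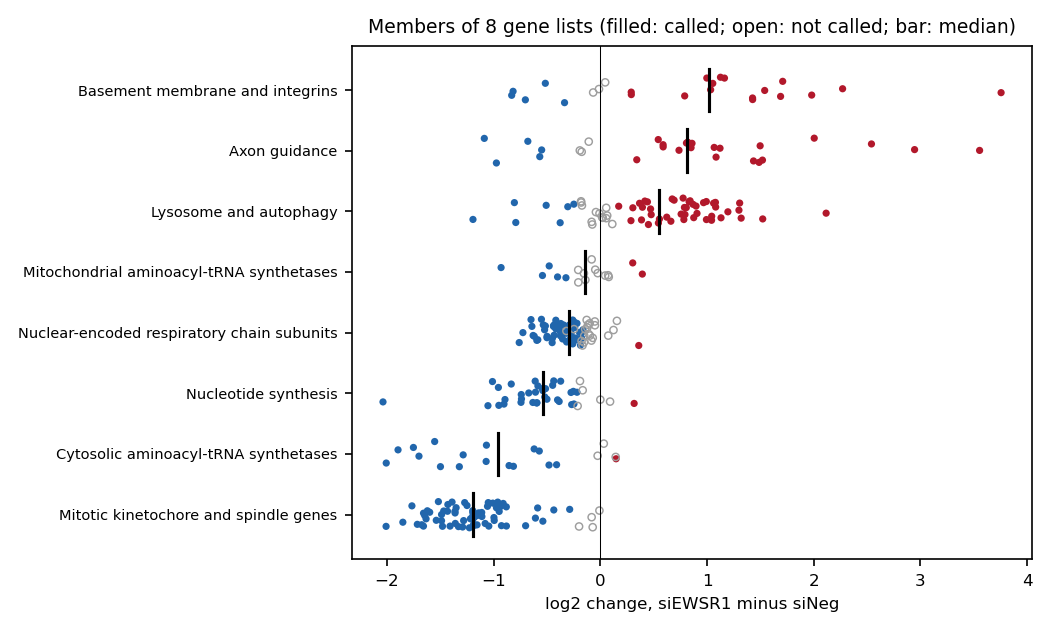
The log2 change of every tested member of 8 gene lists, siEWSR1 minus siNeg, with filled points for called members, open points for members not called and a bar at the median. Cytosolic synthetases (median -0.96) spread further down than mitochondrial ones (-0.14), respiratory chain subunits form a narrow band around -0.29, and lysosomal and autophagy genes lie mostly to the right (0.55).

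Protein turnover and ribosome assembly changed little in size. Of 45 proteasome subunits, 19 were lower (42.2% against 31.7% of all genes) and 4 higher (8.89% against 32.9%). The median of -0.14 became 0.02 with quantile normalization (12 lower, 10 higher). PSMD14, the deubiquitinase of the lid, was the lowest (80.7 and 78.6 against 44.3 and 40.2 FPKM), and PSME3, an activator, the highest (23.3 and 22.05 against 33.0 and 31.5). Of 53 ribosome biogenesis genes, 23 were lower (43.4%) and 9 higher (17.0%), and the 9 became 15 with quantile normalization. The called members ran from DDX21, an RNA helicase (-0.83), to NOL6, a processome subunit (0.70). Among all genes with a mean of 20 to under 100 FPKM, 44.2% were called lower and 23% higher. The part of expression level in the shares of the proteasome and ribosome biogenesis lists was not tested. ER chaperones and heat shock proteins had 15 of 44 higher and 14 lower, near the shares of all genes. DNAJA1, a cytosolic co-chaperone, stood at 39.7 and 39.2 against 77.5 and 80.7, and XBP1, a factor of the unfolded protein response, at 38.1 and 36.2 against 16.1 and 16.3.

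Of 31 BCL2 family and death receptor genes, 8 were higher (25.8% against 32.9% of all genes) and 13 lower (41.9% against 31.7%). The number lowered was smaller without siNeg replicate 1. TNFRSF21, death receptor 6, stood at 1.22 and 1.17 against 22.5 and 28.8 FPKM (3.94 ± 0.12), and BCL2L11, the activator BIM, at 1.29 and 1.01 against 4.43 and 5.26. PMAIP1, the sensitizer NOXA, stood at 34.2 and 31.5 against 7.33 and 7.51 (-2.07 ± 0.06), and BNIP3, a mitophagy receptor, at 42.6 and 51.0 against 23.1 and 12.8. Ion channels had 14 of 34 higher (41.2%, against 32.9% of all genes) and 9 lower (26.5%, against 31.7%). Among all genes with a mean under 5 FPKM, 42.9% were called higher and 21% lower, and the part of level was not tested. KCNE4, a potassium channel regulator, was the lowest, at 127 and 118 against 47.8 and 39.0.

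Some genes crossed from near silence to clear expression. An FPKM under 0.5 in both siNeg libraries and of 5 or more in both siEWSR1 libraries was found for 41 genes, of which 34 had a locus of at least 300 bases. H19, TGM2, ART5, TIMP3 and KRT15 were the most abundant of these. Others, named after their values were seen, were CD52, a lymphocyte surface glycoprotein (0.43 and 0.45 against 17.1 and 15.2 FPKM), AZGP1, a secreted glycoprotein (0.22 and 0.26 against 14.1 and 15.7), and complement C3 (0.05 and 0.04 against 7.22 and 7.70). The reverse pattern was found for 4 genes, all short RNA loci of under 300 bases (MIR3663, SNORA101B, SNORA47 and SNORA65). No gene with a longer locus crossed in that direction under these limits. With a limit of under 0.5 and at least 1 FPKM the counts were 288 and 36. Each of these genes passed the filter only through its higher group, so its direction was fixed in advance.

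The 2 siEWSR1 libraries did not carry the falls to the same depth. Over the 972 genes called at least 2-fold higher, the median log2 change against the siNeg mean was 1.49 in siEWSR1 replicate 1 and 1.54 in replicate 2. Over the 599 called at least 2-fold lower it was -1.16 and -1.38, and 456 and 583 of them passed 2-fold in that library alone. NR0B1, MYEOV, ENO1 and BNIP3 above are examples of genes lower in replicate 2 than in replicate 1. Each of them was also lower in siFLI1 replicate 2 than in siFLI1 replicate 1 (NR0B1 at 69.0 and 56.45 FPKM, ENO1 at 969 and 824). Across the tested genes, siEWSR1 and siFLI1 libraries of equal number correlated at 0.981 and 0.982, against 0.976 within siEWSR1. Whether the depth of the falls follows the replicate number was not tested. Genes called at least 2-fold lower numbered 479 without siEWSR1 replicate 2 and 772 without replicate 1.

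**Figure D5:**
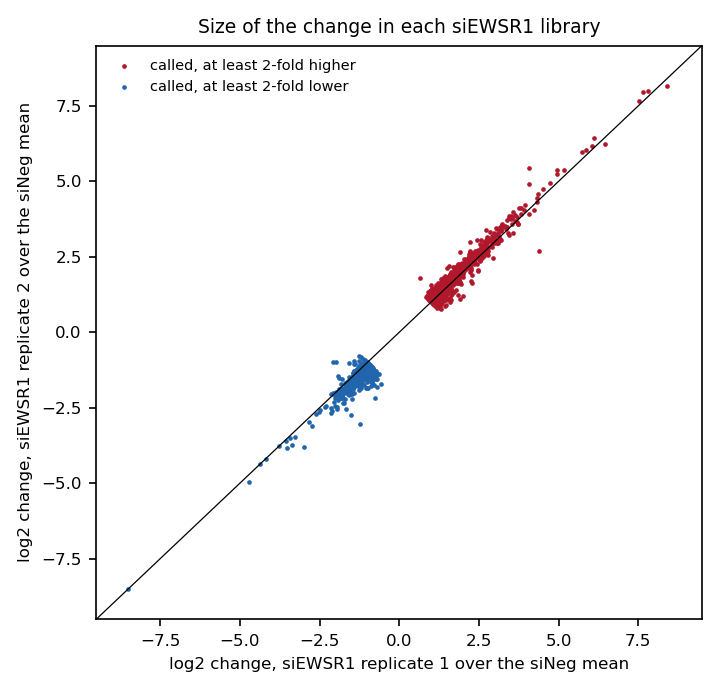
Log2 change of each gene called at least 2-fold higher (red, 972) or lower (blue, 599), in siEWSR1 replicate 1 (horizontal) and replicate 2 (vertical), each against the mean of the siNeg libraries, with the line of equal change. The red points follow the line (medians 1.49 and 1.54), while most blue points lie below it (medians -1.16 and -1.38).

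The sources used here do not give the strand setting, so reads of overlapping genes cannot be told apart. Of the genes given above with their levels, TIMP3 lies in SYN3, FLI1 overlaps SENCR and LOC101929538, SLC6A9 overlaps CCDC24, CDC25C overlaps FAM53C, EME1 overlaps LRRC59, BGN overlaps HAUS7, MRPS6 overlaps SLC5A3, SLC6A6 overlaps GRIP2, SAMHD1 overlaps TLDC2, KRT18 overlaps KRT8, CD52 overlaps UBXN11, H19 overlaps HOTS, LAMA4 overlaps LOC101927640, L1CAM overlaps LCA10, GLA overlaps RPL36A-HNRNPH2 and MMP1 overlaps WTAPP1. TGFB2, ITGB2, A2M, RGMB, CEBPB, ENO1, NDUFB2, MYLK and DIAPH3 overlap antisense genes.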

How the data were processed

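RNA of TC32 cells was sequenced 48 h after transfection with siNeg, siEWSR1 or siFLI1, in 2 libraries each. The deposited values are gene FPKM made by the authors. The submitters' processing notes name TopHat2 2.0.13, Cufflinks, Cuffdiff and the build hg19. The sources used here give no annotation, library kit or strand setting. Each file had 27442 rows, and the FPKM of 380 symbols on more than 1 row were summed. Fragment counts were not recovered, since 41.1% to 43.7% of low genes came out whole within 0.01, so no count model was used.

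Genes with at least 1 FPKM in at least 2 of the 4 siNeg and siEWSR1 libraries were kept. log2(FPKM + 0.5) was fitted with limma 3.58.1 (R 4.3.3, variance trend) over all 6 libraries (3 residual and 3.62 prior degrees of freedom), for siEWSR1 minus siNeg, two-sided, with Benjamini-Hochberg adjustment over 12797 genes and a threshold of 0.05. Folds are on that scale, which makes those of genes near 0 too small. "Called", "higher", "lower", "rose" and "fell" mean an adjusted p under 0.05 in this fit.

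The genes and the 40 lists were chosen with earlier results of these data known, and 1427 of 1791 list entries were tested. Named genes are the 10 highest and 10 lowest changes, the 5 largest gains and falls in FPKM, and the 2 highest and 2 lowest called members of each list, among genes with no overlap between groups, 1 row and a locus of 300 bases or more; up to 5 switched genes; and EWSR1 and FLI1. A few genes that this rule takes are not reported here. Other genes are identified in the text as named after their values were seen. Gene coordinates are hg19, counted from 1. Promoter windows on chromosome 8 were not searched. Alternatives covered left-out libraries, pseudocount, filter, normalization, variance model and a replicate block.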

Additional observations from a re-analysis of the deposited data

How the results depend on the processing

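Replicate numbers carry no stated pairing, and deviations of equal numbers correlated at -0.164 between siNeg and siEWSR1, -0.0835 between siNeg and siFLI1 and 0.289 between siEWSR1 and siFLI1, so they were not treated as pairs. With a replicate block 4119 genes were higher and 3965 lower, 974 and 603 of them at least 2-fold, and with crossed numbers, a pairing added after seeing the data, 4430 and 4287. Leaving out 1 library at a time gave 3438 to 4061 higher, 3240 to 4058 lower, 948 to 1013 at least 2-fold higher and 479 to 772 at least 2-fold lower. With a mean of at least 5 FPKM, 2413 of 8667 genes were higher and 383 at least 2-fold higher, fewer genes being tested. Genes switched on numbered 14 with limits of 0.1 and 5 FPKM and 288 with 0.5 and 1, and 36 were switched off with the latter; without 1 library, 41 to 49 were switched on and 4 to 10 off. The 10 came without siEWSR1 replicate 1. Of 2753 combinations of a named gene and a setting, 2723 kept direction and call, 30 lost the call and none reversed. The calls lost were of EGFL7, RARS, BFSP1, GAPDH, HARS2, TMSB10 and TOP3A. Of 2039 list counts or medians, 87 moved by over 1.5 times or changed sign, and the blood marker list had no member left at a mean of at least 5 FPKM. With 2 libraries a group, small changes of genes near 1 FPKM are at the limit of what these data resolve.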

Other observations

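Genes that changed at least 2-fold in the same direction also stood side by side in places, and the following stretches were picked after their values were seen and were not tested. The longest was 5 tested neighbours on chromosome 11 (hg19, 1753640 to 1913493), all higher with siEWSR1. In it IFITM10 went from 0.09 and 0.09 FPKM in control cells to 1.504 and 1.87, SYT8, a synaptotagmin, from 0.01 and 0 to 2.31 and 1.59, and TNNI2, fast skeletal troponin I, from 0 and 0 to 2.24 and 3.63. LSP1, an actin-binding protein, stood at 0.41 and 0.37 against 4.07 and 4.77, and CTSD lies among them. All but CTSD were under 0.5 FPKM in both control libraries, so they passed the filter on low values only through siEWSR1 and had to be higher, and the length of the stretch rests on them. Further along, H19 and IGF2, which share imprinting control, were both higher, IGF2 at 0.02 and 0.03 against 1.15 and 1.36 FPKM. Both were under 0.5 FPKM in both control libraries, so they too passed the filter only through siEWSR1 and had to be higher.

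On chromosome 21 the type VI collagen genes COL6A1 (12.6 and 14.4 against 92.5 and 86.8 FPKM) and COL6A2 (7.42 and 7.88 against 46.8 and 41.2) were higher together. On chromosome 1 (19969723 to 20239437) 4 neighbours were lower. They were NBL1, a BMP antagonist (20.9 and 20.04 against 8.06 and 8.46), HTR6, a serotonin receptor (30.9 and 36.1 against 9.70 and 6.12), TMCO4 (2.71 and 3.14 against 0.49 and 0.32) and OTUD3, a deubiquitinase (93.8 and 94.97 against 32.5 and 27.7).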
